A study of Salix linearistipularis with 24 samples.

Results

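CL1315 is a gene cluster of the dioecious willow Salix linearistipularis whose closest Swiss-Prot protein, by the annotation of the study, is the serine/threonine-protein kinase SAPK1 of rice. The members were the 8 contigs that carry the number CL1315 among the 253209 rows of the deposited expression table, and their sum was taken as the level of the gene, 1 of 139844 genes. The same annotation lists a SAPK2 protein of Populus trichocarpa as the nearest protein overall and places the cluster in the plant hormone signalling and MAPK signalling maps, so the family is given but the exact member is not.

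SAPK kinases belong to the SnRK2 family of plants. These kinases are activated when cells lose water or meet high salt, and they phosphorylate transcription factors, ion channels and other targets in the osmotic stress response. In rice the whole family is activated by hyperosmotic stress, whereas activation by abscisic acid, the hormone of drought and salt stress, is best known from another branch than that of SAPK1. Transcript levels of a kinase gene do not measure the activity of the kinase.

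Root RNA was sequenced from hydroponic cuttings in 24 libraries, 3 in each of 8 groups. The groups were female roots in water (control) and after 6, 12, and 24 h in 100 mM NaCl, and male roots in water (control) and after 6, 12, and 24 h in 100 mM NaCl. The labels describe 1 female and 1 male individual propagated to cuttings, whereas the methods describe cuttings from several populations and 3 independent experiments, so differences between the sexes and between individual plants cannot be told apart. The methods give the same hours for cuttings without NaCl, but neither they nor the labels say to which of these hours the control libraries belong. All values are FPKM, fragment counts divided by unigene length and by the mapped total of the library, as the authors deposited them, and the 3 libraries of a group were used as replicates whose spread may be technical. In whole root RNA, fewer cells of a type and less RNA per cell cannot be told apart.

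Read totals were not among the files, so the depth behind each value is unknown. The FPKM of a library summed to 663314 to 778064. The 3 male 6 h libraries stood apart from all other groups: weights estimated from the spread over all genes were 0.0842 for male 6 h and 1.14 to 1.84 for the other groups. Root cell type markers could not be looked up, because the table names rows by number only.

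Female control roots held 6.73, 5.74, and 6.46 FPKM of CL1315 in the 3 libraries. Female roots after 6 h of NaCl held 34.6, 30.02, and 32.1 FPKM. Female roots held 6.67, 6.83, and 4.39 FPKM after 12 h, and 8.18, 7.78, and 6.70 FPKM after 24 h. The female course was therefore a single high point at 6 h, with the libraries of 12 and 24 h overlapping those of the control.

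Male control roots held 15.3, 17.7, and 16.3 FPKM of CL1315. Male roots held 19.1, 20.9, and 19.6 FPKM after 6 h of NaCl, and 20.0, 18.6, and 19.1 FPKM after 12 h. After 24 h they held 3.17, 2.38, and 2.81 FPKM. The male course thus stayed between 15.3 and 20.9 FPKM until 12 h and was lowest of all 8 groups at 24 h.

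**Figure D1:**
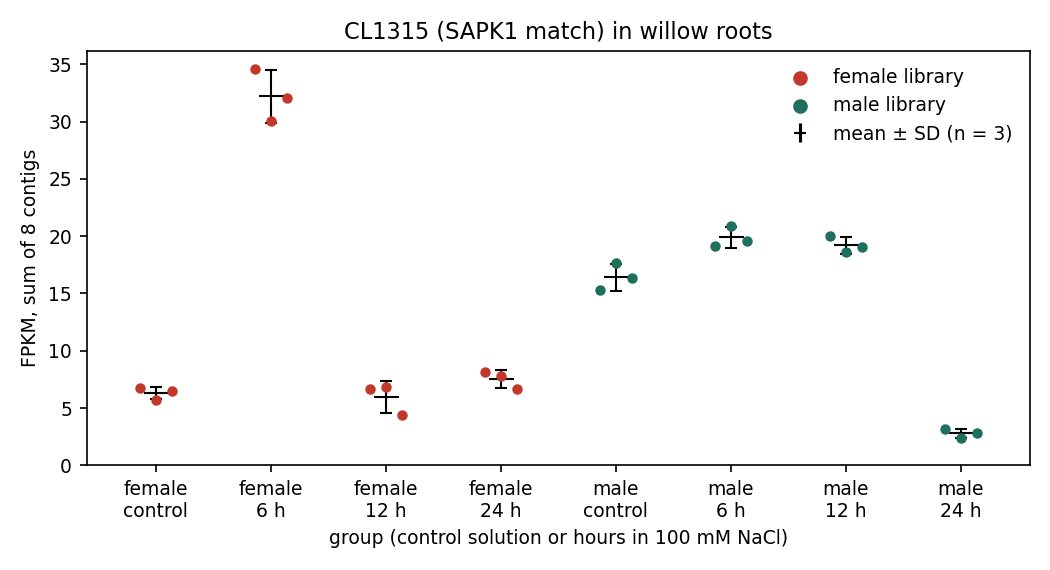
FPKM of CL1315 (sum of 8 contigs, y axis) in each of the 24 libraries (points) of the 8 groups (x axis), with the group mean and SD (n = 3). The female 6 h libraries lie between 30.02 and 34.6 FPKM, above every other library, and the male 24 h libraries lie between 2.38 and 3.17 FPKM, below every other library.

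CL1315 was higher in female roots after 6 h of NaCl than in female control roots. It averaged 32.2 ± 2.28 FPKM in female 6 h roots and 6.31 ± 0.512 FPKM in female control roots (SD, n = 3 each), a ratio of means of 5.11. On the log2(FPKM + 0.5) scale, which understates changes of low values and does so strongly below 1 FPKM, the ratio was 2.27 with a standard error of 0.14 (limma, Benjamini-Hochberg adjusted p = 4.05e-11). DEGs were genes whose adjusted p did not exceed 0.05 and whose log2 ratio reached 1 in either direction. CL1315 was not alone in this: 29.6% of the 95202 tested genes were called higher in female 6 h roots than in female control roots.

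After 12 h the log2 ratio of female NaCl to female control roots was -0.10 (standard error 0.14, limma adjusted p = 0.733), and it was 0.09 without the third 12 h library. After 24 h the ratio was 0.24 (standard error 0.14, limma adjusted p = 0.199), and 0.72 with libraries scaled by the median of ratios, which is still under the log2 threshold. CL1315 was called at neither time, beside 22.2% of all tested genes at 12 h and 31.6% at 24 h. Against the 6 h libraries, the female 12 h libraries were lower by a log2 ratio of -2.36 (limma adjusted p = 4.57e-11), where 26.5% of all tested genes were called lower. The step between 24 and 12 h in female roots was 0.34 (limma adjusted p = 0.113), where 11.6% of all tested genes were called in either direction.

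In male roots CL1315 fell at 24 h in FPKM as deposited, by an amount that depends on the scaling. It averaged 2.79 ± 0.396 FPKM in male 24 h roots and 16.4 ± 1.20 FPKM in male control roots (SD, n = 3 each), so that male control roots held 5.89 times as much. The log2 ratio was -2.37 with a standard error of 0.14 (limma adjusted p = 4.25e-11), and 27.8% of all tested genes were called lower in this comparison. With libraries scaled by the median of ratios it was -1.25, still called. Relative to CL19537, the actin cluster that the study used as a reference gene (SlActin) and that itself fell, it was -0.39 and not called (limma adjusted p = 0.538). With each group except male 6 h reduced to 1 sample it was -2.36. The spread in that fit came from the male 6 h libraries alone, so its calls cannot judge the other groups. The log2 ratio of male 24 h to male 12 h roots was -2.59 (limma adjusted p = 2.37e-11), with 26.2% of all tested genes called lower, and it was -2.27 after scaling and -0.28, not called, relative to SlActin.

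At the earlier male times the differences were not called in FPKM as deposited, and they were larger with libraries scaled by the median of ratios, 0.69 at 6 h and 1.03 at 12 h, where the 12 h value passed both thresholds. The male 6 h libraries did not overlap the male control libraries, but the log2 ratio was 0.27 (standard error 0.14, limma adjusted p = 0.15), and 33.8% of all tested genes had ranges that did not overlap between these groups. At 12 h the log2 ratio to male control roots was 0.22 (standard error 0.14, limma adjusted p = 0.209), again with no overlap of the libraries, which 63.1% of all tested genes also showed. CL1315 was called at neither time, beside 30.3% of all tested genes at 6 h and 49.9% at 12 h. Between male 12 h and male 6 h roots the log2 ratio was -0.05 (limma adjusted p = 0.884), beside 32.6% of all tested genes called.

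To ask whether the sexes responded differently, the response of male roots was subtracted from that of female roots at each time. At 6 h the response was more positive in female roots by 2.0 on the log2 scale (standard error 0.20, limma adjusted p = 1.01e-07), and 28.6% of all tested genes were called in this direction. At 24 h it was more positive in female roots by 2.61 (standard error 0.20, limma adjusted p = 2.83e-09), with 18.7% of all tested genes called in this direction. At 12 h the difference of -0.32 (standard error 0.20) was not called (limma adjusted p = 0.196), beside 48.5% of all tested genes. With libraries scaled by the median of ratios the response difference was 1.61 at 6 h, -0.99 at 12 h, and 1.97 at 24 h. In the values, the female group was high at 6 h and the male group was low at 24 h. The female control was also lower than the male control (6.31 and 16.4 FPKM, log2 ratio -1.31). This control difference enters all 3 response differences. The 3 comparisons share the same female and male control libraries.

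CL1315 was called lower in female than in male roots in the control and at 12 h, and higher at 24 h in FPKM as deposited, where the call depends on the processing. In the control the log2 ratio of female to male roots was -1.31 (limma adjusted p = 2.07e-07), with 15.7% of all tested genes called lower in female roots. After median-of-ratios scaling the control ratio was -1.0, right at the log2 threshold, and the 12 h ratio was -1.99. At 12 h the ratio as deposited was -1.63 (limma adjusted p = 9.23e-09), with 25.2% called lower in female roots. At 24 h it was 1.30 (limma adjusted p = 6.7e-07), with 13.7% called higher in female roots. The 24 h difference was not called after scaling (0.97), with contig 4 alone (0.29), or relative to SlActin (0.76). With each group except male 6 h reduced to 1 sample, the ratios were -1.31 in the control, -1.61 at 12 h, and 1.29 at 24 h. At 6 h female roots were higher by 0.68 (limma adjusted p = 0.0006), which is under the log2 threshold of 1, and 33.5% of all tested genes were called in either direction.

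**Figure D2:**
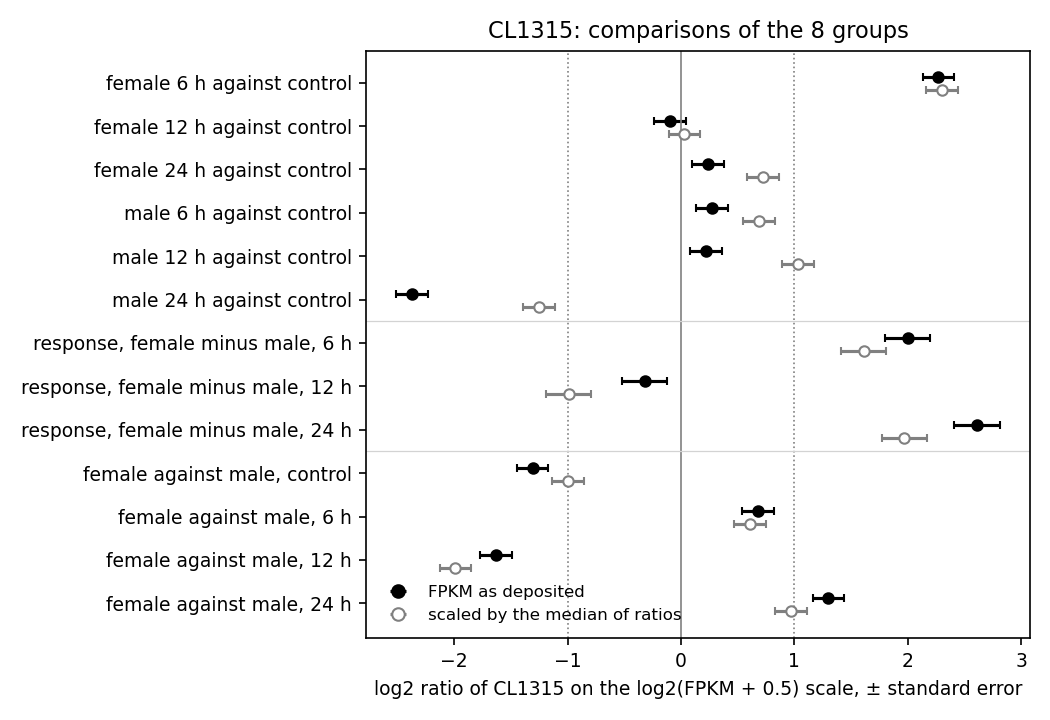
Log2 ratios of CL1315 on the log2(FPKM + 0.5) scale (x axis) with standard errors, for NaCl against control within a sex, for the difference of these responses, and for female against male roots (rows). Filled points use FPKM as deposited and open points use libraries scaled by the median of ratios; dotted lines mark log2 ratios of -1 and 1. The male 24 h ratio is -2.37 as deposited and -1.25 after scaling, and the male 12 h ratio is 0.22 and 1.03.

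By mean level the groups ran from female 6 h (32.2 FPKM) through male 6 h (19.9), male 12 h (19.2), male control (16.4), female 24 h (7.55), female control (6.31), and female 12 h (5.96) to male 24 h (2.79). Of the 28 pairs of groups, 18 were called, where 37.6% of gene and pair combinations were called over all tested genes. The libraries did not overlap in 24 pairs, which held for 53.5% of these combinations over all tested genes. Among the 7 pairs of neighbours in this order, male control and female 24 h roots were the single pair called. With median-of-ratios scaling the log2 ratio of female 24 h to male control roots was -0.28 in place of -1.07, so this step in the order rests on the scaling, and that of female control to male 24 h roots was 0.25 in place of 1.06. Male 6 h and 12 h, female 24 h and control, and female control and 12 h overlapped, so their order is not resolved. An exact two-sided permutation test of 3 against 3 libraries cannot go below p = 0.1, which was its value wherever 2 groups did not overlap.

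The place of CL1315 within each library, which needs no scaling between libraries, followed a similar course. In female roots it lay at the 82.6th to 84.6th percentile of tested genes in control libraries, at 95.0 to 95.7 after 6 h, at 81.8 to 86.3 after 12 h, and at 88.1 to 89.5 after 24 h. In male roots it lay at 90.5 to 91.5 in control libraries, at 92.7 to 94.0 after 6 h, at 94.1 to 94.4 after 12 h, and at 80.1 to 83.3 after 24 h. Male 6 h and 12 h libraries stood above male control libraries by this measure without overlap, and so did female 24 h over female control libraries. How many of all tested genes were apart by percentile was not counted. In FPKM, 33.8% of tested genes did not overlap between male 6 h and male control libraries, and 63.1% between male 12 h and male control libraries. The male 24 h percentiles overlapped those of female control and female 12 h roots, which the FPKM sums did not.

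The scaling of the libraries changed both large and small differences. Size factors by the median of ratios ran from 0.6435 to 1.513. Among the 6 NaCl comparisons it moved CL1315 most at 24 h in male roots, where the log2 ratio was -2.37 as deposited and -1.25 after scaling, and at 12 h in male roots, where it was 0.22 and 1.03. At 6 h in female roots it was 2.27 and 2.30. Scaling shifted the median gene by more than 0.1 in 2 of the 6 NaCl comparisons: at 24 h in female roots it was -0.30 as deposited and -0.09 after scaling, and at 6 h in male roots 0.00 and 0.11. Relative to the median gene, CL1315 stood at 0.54 and 0.82 in female 24 h roots, at 0.27 and 0.59 in male 6 h roots, and at -2.29 and -1.25 in male 24 h roots, before and after scaling. Scaling also changed the split of calls over all genes: in male 24 h roots 30.3% of calls were higher as deposited and 53.9% after scaling.

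SlActin, CL19537, was itself not constant. On the log2 scale it fell by 1.35, 2.67, and 4.45 in female roots after 6, 12, and 24 h, and its male 24 h ratio was -2.12 (all 4 called). It was also called higher in female than in male roots in the control (361 and 46.4 FPKM, log2 ratio 2.98) and at 6 h (2.17). Between the sexes it was not called at 12 or 24 h. The male 6 h libraries held 14.4, 23.5, and 87.3 FPKM of SlActin. Relative to it, CL1315 had a log2 ratio of 4.37 in female 24 h against female control roots, which was called, and the female 6 h call held in this unit too. When each group except male 6 h was reduced to 1 sample, the response differences between the sexes were 2.0 at 6 h and 2.61 at 24 h. Calls in that fit rest on the spread of the male 6 h libraries alone and cannot judge the other groups.

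The cluster sum was made up differently in the groups. All 8 contigs passed the filter of 1 FPKM in at least 3 libraries, and 4 of them had the highest mean in at least 1 group. Contigs of a cluster share sequence and therefore reads, so the split between them is uncertain, and they are not replicates of the gene. No contig sequence is shown, since none was among the files used.

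Contig 2 carried the largest mean of any contig in female 6 h roots. It had 10.2, 6.89, and 6.23 FPKM there, against 0.80, 0.76, and 0.14 FPKM in female control roots (log2 ratio 3.0, standard error 0.56, limma adjusted p = 0.000109). In male roots it was listed at 0 in all libraries of 6 and 24 h, against 0.00, 2.86, and 3.78 FPKM in male control libraries, and it had 2.82, 4.96, and 3.07 FPKM at 12 h. The male control libraries were thus split for this contig, and the male 6 h call was lost without the second or the third of them, the male 24 h call without the third.

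Contig 8 led the male control group. It had 3.37, 0.55, and 0.00 FPKM in male 6 h, 0.41, 0.27, and 0.00 FPKM in male 12 h, and 0.00 FPKM in all male 24 h libraries, against 6.04, 4.45, and 4.55 FPKM in male control libraries. In female roots it had 5.95, 7.16, and 6.53 FPKM after 6 h, against 0.77, 0.00, and 0.13 FPKM in the control (log2 ratio 3.25, standard error 0.53, limma adjusted p = 2.29e-05). It was therefore high in male control and female 6 h roots and at most 0.85 FPKM in the libraries of all other groups except male 6 h.

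Contig 4, the most abundant contig over all libraries, shared the female 6 h and male 24 h calls of the sum but not the call between the sexes at 24 h, where its log2 ratio of female to male roots was 0.29. It had 7.36, 6.35, and 7.32 FPKM in female 6 h roots, against 0.96, 0.37, and 0.66 FPKM in female control roots (log2 ratio 2.72, limma adjusted p = 3.95e-08). It had 0.91, 0.40, and 0.42 FPKM in male 24 h roots, against 3.79, 5.06, and 3.71 FPKM in male control roots (log2 ratio -2.14, limma adjusted p = 1.37e-06).

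Contig 1 and contig 7 were called higher in male 12 h than in male control roots, where the sum was not called in FPKM as deposited. Contig 1 averaged 5.75 ± 1.52 FPKM in male 6 h and 5.90 ± 1.45 FPKM in male 12 h roots, against 1.47 ± 0.380 FPKM in male control roots (SD, n = 3 each), with log2 ratios of 1.66 and 1.69 that were both called. Contig 7 led in female control and female 12 h roots. It had 3.61, 3.57, and 3.86 FPKM in male 12 h roots, against 0.46, 0.44, and 0.26 FPKM in male control roots (log2 ratio 2.24, limma adjusted p = 5.98e-05). Male 12 h and male control roots thus had near sums but different contigs, with contigs 1 and 7 called higher and contigs 6 and 8 called lower at 12 h.

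The remaining contigs were lower. Contig 3 had 3.16, 3.69, and 5.60 FPKM in male 6 h roots, against 0.17, 0.00, and 0.00 FPKM in male control roots, and did not pass 1.30 FPKM in the libraries of any other group. Contig 5 had its highest mean, 1.65 FPKM, in female 6 h roots. Contig 6 ran against the sum in female roots, with 0.10, 0.10, and 0.00 FPKM after 6 h, against 0.47, 1.08, and 0.96 FPKM in the control (log2 ratio -1.21, limma adjusted p = 0.000994), and it was listed at 0 in all male 12 and 24 h libraries.

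**Figure D3:**
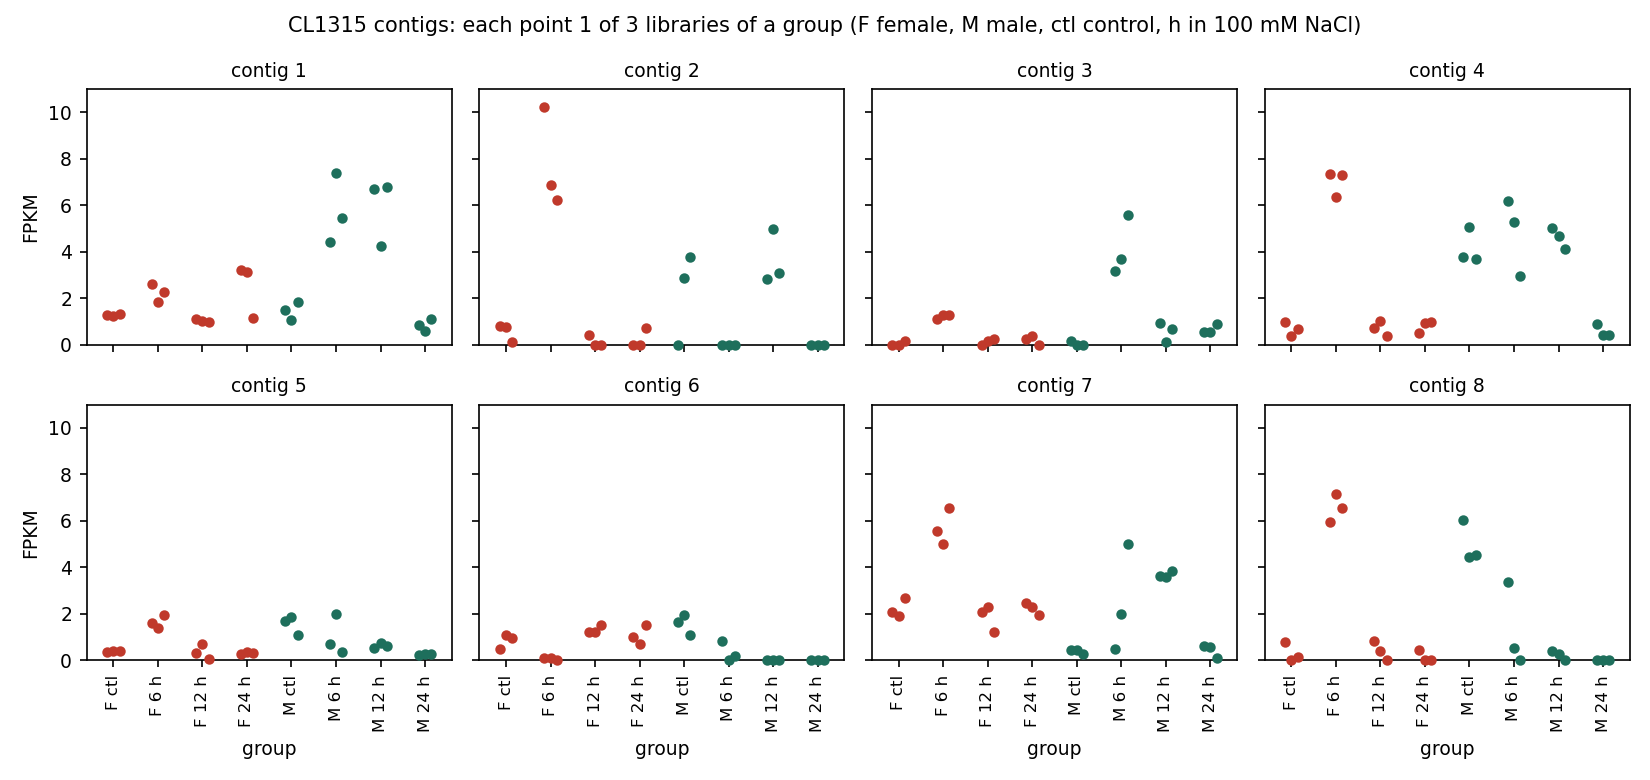
FPKM of each of the 8 CL1315 contigs (panels, y axis) in the 24 libraries (points) of the 8 groups (x axis; F female, M male, ctl control). Contigs 2, 4, 7, and 8 each reach 4.99 FPKM or more in every female 6 h library; in male 6 h roots contig 7 spreads from 0.47 to 5.0 FPKM.

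Counted over the contigs, 6 of 8 were called higher and 1 lower in female 6 h roots, beside 27.8% and 21.9% of all tested rows. None of the 8 was called by limma in female roots after 12 or 24 h, beside 9.24% of rows higher and 9.31% lower at 12 h and 9.84% and 18.2% at 24 h. In male roots 3 contigs rose and 3 fell at 6 h (13.3% and 18.3% of all rows), while 2 rose and 2 fell at 12 h (24.2% and 27.3%). At 24 h 1 was called higher and 5 lower (15.2% and 29.7%). The difference of the responses, female minus male, was positive for 4 contigs and negative for 2 at 6 h (28.2% and 19.5% of all rows), 2 and 2 at 12 h (23.4% and 23.8%), and 5 and 0 at 24 h (21.5% and 17.4%). Between the sexes, 1 was called higher and 3 lower in female control than in male control roots, beside 22.0% and 19.4% of all rows. Female roots had 3 contigs higher and 2 lower than male roots at 6 h (21.7% and 10.3%), 1 higher and 3 lower at 12 h (27.0% and 24.5%), and 3 higher and 0 lower at 24 h (17.5% and 11.6%).

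The male 6 h libraries had near sums of CL1315 but different contigs. Contig 7 had 0.47, 1.98, and 5.0 FPKM in the 3 libraries, and contig 8 had 3.37, 0.55, and 0.00 FPKM, so that contig 4, contig 1, and contig 3 each led in 1 of them. Between 2 libraries, the share of the sum that would have to move from some contigs to others was 31.5% on average within male 6 h, and 8.94% to 23.1% within the other groups. For 5790 clusters with at least 5 contigs and at least 2 FPKM in every library, the median of this share was 36.4% within male 6 h and 8.0% to 11.3% within the other groups. The spread of the male 6 h libraries was therefore not particular to this cluster, and with weights per group no male 6 h call of a contig other than contig 3 passed the thresholds.

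Across groups the make-up of CL1315 changed by 45.3% in female 6 h against female control libraries, where the median cluster changed by 38.6%. It changed by 21.3% and 23.1% in female 12 and 24 h roots, where the median cluster changed by 12.8% and 15.3%, and by 19.8% between libraries of the female control itself. In male roots it changed by 53.5% at 6 h, 49.5% at 12 h, and 60.7% at 24 h against the control, where the median cluster changed by 29.7%, 36.8%, and 39.2%. Female and male control libraries differed by 52.9%, and the median cluster by 39.2%.

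The study's table of salt-responsive genes held 25 other genes with an abscisic acid, water deprivation, hormone signalling, or plant MAPK term. All of them were measured. The study chose this table on the same libraries, so the directions of its genes are not independent evidence. In female roots 7 list genes rose and 4 fell at 6 h, where 29.6% of all tested genes rose and 20.9% fell. After 12 h 5 rose and 4 fell in female roots (9.47% and 12.7% of all), and after 24 h 5 rose and 9 fell (9.01% and 22.6%). Male roots had 5 list genes higher and 9 lower at 6 h (13.2% and 17.2%), while 9 rose and 7 fell after 12 h (25.4% and 24.5%). The male 24 h roots had 6 list genes higher and 11 lower (12.1% and 27.8%). The list was thus mixed in every comparison, and its median log2 ratio ran from -0.65 in female 24 h to 0.15 in male 12 h roots, where the median over all tested genes was -0.30 and 0.00.

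Among the transcription factors of this list, 2 genes moved in 1 direction in all 6 NaCl comparisons. CL3639 matches WRKY33 of Arabidopsis, a factor that acts downstream of MAP kinases. It had 2079, 2053, and 2101 FPKM in male 12 h roots, against 30.6, 29.0, and 29.1 FPKM in male control roots (log2 ratio 6.11, limma adjusted p = 1.19e-13), and in female 6 h roots its log2 ratio to the control was 4.41. CL2555, which matches the Arabidopsis factor MYB13, had log2 ratios of 5.02 in female 6 h and 5.94 in male 12 h roots. At 24 h in female roots, where CL1315 was not called, CL3639 stood at 4.72 and CL2555 at 4.82, both called. Another list gene, CL2909, matches the Arabidopsis histone deacetylase HDT3 and was called lower in all 6 comparisons. Its log2 ratios ran from -1.06 in female 6 h to -2.95 in male 12 h roots.

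Other list genes differed from CL1315 in at least part of the comparisons. Unigene26361, a second WRKY33 match, had 0.00, 0.55, and 0.34 FPKM in female 12 h roots, against 4.58, 6.96, and 5.14 FPKM in female control roots, and it had 17.3, 9.41, and 9.07 FPKM in male 12 h roots, against 0.00, 2.45, and 0.40 FPKM in male control roots. CL13859 matches XERICO, an Arabidopsis ubiquitin ligase linked to abscisic acid levels. On the log2 scale it fell by 1.51 in female 12 h, by 1.52 in female 24 h, and by 2.34 in male 24 h roots, each against the control of its sex. CL1315 was also called lower in male 24 h roots. CL4816 matches a calmodulin-binding receptor-like cytoplasmic kinase and was called in none of the 6 comparisons. CL1787 matches the hexose transporter STP13 (Sugar transport protein 13) and had 1765, 1778, and 1702 FPKM in male 24 h roots, against 36.4, 33.3, and 35.2 FPKM in male control roots (log2 ratio 5.62). Of the 10 annexins of the list, calcium-binding membrane proteins, 0 rose and 2 fell in female 6 h roots, where 29.6% of all tested genes rose and 20.9% fell. In female roots 1 annexin rose and 1 fell after 12 h (9.47% and 12.7% of all), and 1 rose and 4 fell after 24 h (9.01% and 22.6%). In male roots 0 annexins rose and 4 fell after 6 h (13.2% and 17.2%), 2 rose and 3 fell after 12 h (25.4% and 24.5%), and 1 rose and 5 fell after 24 h (12.1% and 27.8%).

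**Figure D4:**
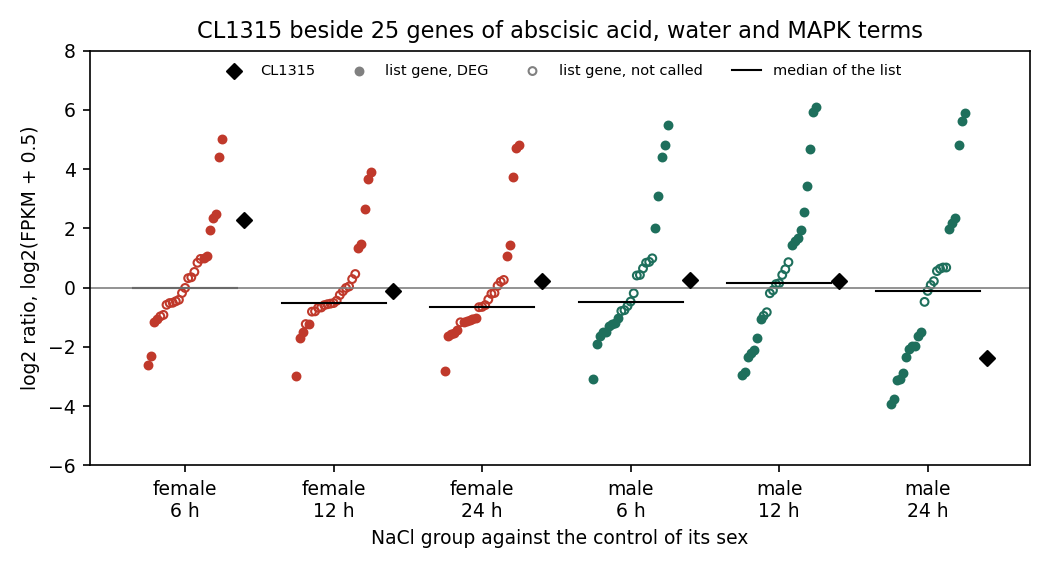
Log2 ratio to the control of the same sex, on the log2(FPKM + 0.5) scale (y axis), in the 6 NaCl groups (x axis). Circles are 25 genes with abscisic acid, water deprivation, hormone signalling, or plant MAPK terms, filled where called a DEG. Diamonds are CL1315, and bars mark the list's median. CL1315 stands at 2.27 in female 6 h and at -2.37 in male 24 h roots, and between -0.10 and 0.27 in the other 4 groups.

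The 145 genes of the study's tables were ranked by Pearson's r with CL1315 over the 24 libraries, on the log2(FPKM + 0.5) scale. These libraries share groups and composition, so r is given as a description. The most alike was CL3994, a match of the Arabidopsis RNA-binding protein ARP1 (r = 0.863). CL3994 was also a member of the list of abscisic acid, water, hormone and MAPK terms above. It had 8.44, 7.81, and 8.13 FPKM in female 6 h roots, against 0.97, 1.09, and 1.58 FPKM in female control roots, and 0.04, 0.36, and 0.23 FPKM in male 24 h roots, against 9.90, 9.66, and 11.2 FPKM in male control roots. Both comparisons were called in the same direction as for CL1315. Elsewhere it differed: it was called lower in male 6 h than in male control roots (log2 ratio -1.30), where CL1315 was not called. Its male 6 h libraries were spread, at 8.32, 3.04, and 2.17 FPKM. With single libraries left out this ratio ran from -1.80 to -0.94, which is under the threshold. CL3994 was highest in male 12 h roots, at 14.6 to 17.5 FPKM in the 3 libraries.

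Next came Unigene7100, a match of the maize aquaporin PIP2-4, a plasma membrane water channel (r = 0.845). It had 64.7, 66.5, and 63.9 FPKM in female 6 h roots, against 1.29, 1.46, and 1.98 FPKM in female control roots. Unigene21732 (r = 0.835) and Unigene15071 (r = 0.828) match the cytosolic ascorbate peroxidase APX2 of Arabidopsis, an enzyme that removes hydrogen peroxide. Unigene43275 (r = 0.819) matches the Arabidopsis Na+/H+ exchanger NHX2. Its female control libraries were all listed at 0, and it had 2.90, 2.61, and 2.04 FPKM in female 6 h roots. Elsewhere these genes did not all follow CL1315. Unigene7100 averaged 8.55 FPKM in female 24 h and 1.58 FPKM in female control roots. Unigene15071 averaged 51.5 FPKM in male 12 h and 169 FPKM in male control roots. Unigene43275 had its highest mean, 3.09 FPKM, in male 12 h roots. Without male 6 h the same 5 genes remained the most alike, and by Spearman's rho 4 of them did.

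Over all tested genes, 44 of 95201 reached r of 0.9 or more, 879 reached 0.8 or more, and the median r was 0.19. The highest were CL14061 (r = 0.966) and CL15552 (r = 0.956), for which no annotation was used. The 5 annotated genes above ranked between 192 (CL3994) and 589 (Unigene43275) among all tested genes. CL14061 had 52.0, 50.8, and 48.8 FPKM in female 6 h roots, against 3.32, 3.63, and 3.14 FPKM in female control roots. In male roots CL14061 had 1.62, 1.55, and 1.82 FPKM after 24 h, against 24.1, 24.6, and 21.9 FPKM in the control.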

How the data were processed

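Root RNA of 8 groups of 3 libraries was sequenced, and the authors assembled the reads with Trinity without a reference genome and deposited FPKM per contig or single unigene, although the methods name RPKM. Aligner and quantifier: not given in the sources used here. Library columns were matched to samples by label, and 0 columns were left unmapped. Contigs were added up by cluster. Genes that reached 1 FPKM in 3 or more libraries entered the test, on the log2(FPKM + 0.5) scale, in limma 3.58.1 (R 4.3.3) by lmFit and eBayes with a trend, with 1 mean per group and Benjamini-Hochberg adjustment within a comparison over all 95202 tested genes, or over all 181249 tested rows for contigs. The test was tried on simulated data with known changes. Where low FPKM values lay on steps of single reads (21329 single unigenes, within 0.2 of a step), relative depth was 0.90 to 1.05, an estimate that cannot leave a narrow range, and tables were not converted to reads. Low FPKM values are the least precise.

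Genes were named by a fixed rule: CL1315 and its contigs, the reference gene SlActin, list genes picked as acting in signalling or transcription, the 3 list genes with the largest ratios, the 5 annotated genes most alike, and the 2 most alike without annotation. CL2909 was named outside this rule. The members, lists and rule were chosen with earlier results of these data known. Alternatives were other pseudocounts (0.1 and 1), an FDR of 0.01, no filter, median-of-ratios scaling, a replicate block, separate fits of the compared groups, weights per group, each library left out, male 6 h left out, each group except male 6 h as 1 sample, ratios of group means, ratios to SlActin, and the most abundant contig alone. The difference in make-up of a cluster between libraries was computed after seeing the contig values. Other steps used matplotlib 3.10.9, scipy 1.17.1, pandas 2.3.3, and numpy 2.4.6 in Python 3.11.15, and data.table (version 1.17.8) in R.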

Additional observations from a re-analysis of the deposited data

Results flagged for a closer look

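The difference between the female and the male response to NaCl, tested as an interaction in limma, was called for CL1315 at 6 h (2.0 on the log2 scale) and at 24 h (2.61), as it was in the same direction for 28.6% and 18.7% of all tested genes. Among its contigs at 6 h, where 28.2% of all rows were called positive and 19.5% negative, it was positive for contig 2 (4.95), contig 4 (2.58), contig 5 (1.83), and contig 8 (5.36), and negative for contig 1 (-1.04) and contig 3 (-1.39). At 12 h, when the sum was not called, and 23.4% of all rows were called positive and 23.8% negative, contig 6 (2.49) and contig 8 (3.16) were positive and contig 1 (-1.90) and contig 7 (-2.47) negative. At 24 h, beside 21.5% of all rows called positive, contig 1 (1.21), contig 4 (2.32), contig 5 (1.29), contig 6 (2.26), and contig 8 (3.21) were positive. The values of contigs 2, 6, and 8 include groups listed at 0 in every library and depend on the pseudocount. The 6 h values include the widely spread male 6 h libraries, and the 3 times share their control libraries. In the control the CL1315 sum was lower in female than in male roots (log2 ratio -1.31). No cause was tested.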

How the results depend on the processing

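Leaving aside the 1-sample fit below, the female 6 h response of CL1315 was called under every alternative that gave a test of it. Its leave-one-out values were 2.20 to 2.31. With 1 sample per group except male 6 h, male 24 h against control was -2.36 and male 24 against 12 h -2.59. Female against male was -1.31 in the control, -1.61 at 12 h, and 1.29 at 24 h. The response differences were 2.0 at 6 h and 2.61 at 24 h. Calls in that fit cannot judge groups of 1 sample. Fewer samples entered that fit. With median-of-ratios scaling, 15 of 28 pairs were called. The share of 37.6% of gene and pair combinations called over all tested genes belongs to FPKM as deposited. It was not counted for other settings. After scaling, male 12 h against control was 1.03, female 12 h against control 0.03, male 12 against 6 h 0.33, and female against male at 24 h 0.97. With contig 4 alone, the last was 0.29 and female 12 h against control 0.05. As ratios of group means, male 24 h against control was -2.56, male 24 against 12 h -2.79, and the 24 h response difference 2.82. Relative to SlActin, which itself fell, female 12 h against control was 2.26, female 24 h against control 4.37, and female 24 against 12 h 2.11. In the same unit male 12 h against control was -0.11, male 24 h against control -0.39, and male 24 against 12 h -0.28. The 12 h response difference was 2.37, and female against male was -1.48 at 6 h and 0.76 at 24 h. SlActin was itself higher in female than in male roots in the control (log2 ratio 2.98) and at 6 h (2.17). With weights per group, 5 instead of 8 contig calls were higher in female roots over the 4 comparisons of the sexes. Spearman's rho was 0.723 for CL3994 and 0.694 for Unigene43275. Leaving out single libraries moved female 12 h against control between -0.20 and 0.09. Where not stated otherwise, the cause was not tested. Libraries with the same replicate number did not deviate together (mean r 0.000687, 0 of 84 pairs over 0.1; 11 of 24 libraries correlated best with their own number), and with the replicate block the female 6 h ratio stayed at 2.27 and the male 24 h ratio at -2.37, with 18 of 28 pairs called. For the named contig, list and SlActin results that were called, 570 values under the other settings kept the call and 39 lost it, and 590 kept and 22 lost it with 1 library left out, all in the same direction. Over all alternatives the adjusted p of limma ran from 4.92e-12 to 0.03 for female 6 h and from 4.1e-14 to 0.538 for male 24 h.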
